A study of Homo sapiens with 2 samples.

Results

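The genes described here are those of autophagy and the lysosome: the ATG genes and their partners, the lysosomal proton pump, the cathepsin proteases, 3 transcription factors and 4 lysosomal membrane proteins. They were chosen by name, and a gene belonged to the set when it is protein-coding and carries one of these names. Of 19974 protein-coding genes on chromosomes 1 to 22 and X, 79 carried such a name, and 32 of these were the nearest gene of at least 1 mTOR peak. The data are a chromatin immunoprecipitation sequencing (ChIP-seq) experiment for the kinase mTOR. The cells were MDA-MB-231, a widely used line from a human triple-negative breast tumour, kept in medium with serum. There was 1 mTOR ChIP library, made with an antibody to mTOR, and 1 library of input chromatin from the same line. The values are the 21440 peaks of the ChIP library on hg38, each with a score deposited by the authors, whose scale is not stated.

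Neither library had a replicate, so no value below has a replicate error and no test between conditions was possible. Intervals are exact Clopper-Pearson 95% intervals over genes and cover counting error only. Read depth is unknown, since the peak list holds no read counts. A gene without a listed peak may still be bound, and no expression values were at hand to check which of these genes the line expresses.

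In autophagy a double membrane closes around cytoplasm and fuses with the lysosome, whose acid interior and proteases break the contents down. The ULK1 kinase complex starts the process, a lipid kinase complex marks the membrane, and conjugation enzymes attach ATG8-type proteins to it. When nutrients are ample, mTORC1 phosphorylates ULK1 and ATG13 and holds back initiation. It also keeps TFEB, a transcription factor of autophagy and lysosome genes, in the cytoplasm. TFEB binds the CLEAR element, an E-box type sequence found at many lysosomal promoters.

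Promoter peaks were listed at more autophagy genes than cathepsin genes and at none of the proton pump genes. A promoter peak is a peak assigned to the gene that overlaps 1 kb on either side of the assigned start. It was present at 11 of 34 autophagy genes (32.4%, 17.4 to 50.5%), at 0 of 22 proton pump genes (0 to 15.4%) and at 1 of 15 cathepsin genes (6.67%, 0.169 to 31.9%). Over all protein-coding genes the share was 15.5%. The autophagy and proton pump intervals did not overlap, whereas the cathepsin interval overlapped both. Groups were chosen with earlier results of these data known, so this contrast is a description and was not tested. For the whole set the count was 14 of 79 (17.7%, 10.0 to 27.9%), near the share of all genes. At any distance, 21 of 34 autophagy genes, 4 of 22 pump genes and 3 of 15 cathepsin genes were the nearest gene of a peak, and 32 of 79 of the whole set (40.5%, against 41.7% of all protein-coding genes). Among the 2144 peaks with the highest scores, only ATG13 and TFEB of the set kept a promoter peak, 2.53% against 1.57% of all protein-coding genes.

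**Figure D1:**
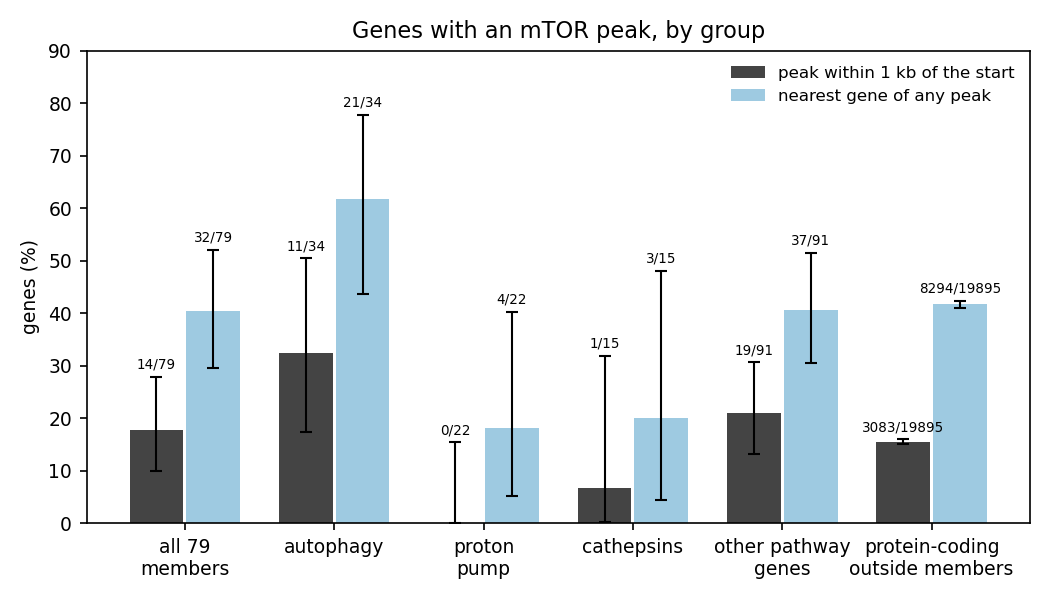
Share of genes (%) with an mTOR peak within 1 kb of the start (dark bars) or named as nearest gene of any peak (light bars), by group, with exact 95% intervals and counts. Autophagy genes stand at 32.4% and proton pump genes at 0% for promoter peaks, beside 15.5% of protein-coding genes outside the set.

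The initiation complex had a promoter peak at 2 of its 5 genes (5.27 to 85.3%, an interval that holds the 15.5% of all protein-coding genes). ATG13, the adaptor that binds ULK1 and is itself an mTORC1 substrate, had the highest promoter score of the set, 314 (chromosome 11, 46617152 to 46617893). Of the 3097 genes with a promoter peak, 4.52% scored above it. Its centre lay 246 bp after the assigned start, and the peak also covered the start of ATG13 in RefSeq. The centre lay inside HARBI1, an end of which was within 1 kb as well. The deposited promoter label of this peak named the transcript NM_173811, whereas the assigned start was that of NM_001346332. The label gives no gene name, so the labelled promoter need not be that of ATG13. ATG101, which stabilises ATG13, had a peak of score 106 centred 160 bp upstream (chromosome 12, 52069614 to 52070014). The kinase gene ULK1 had 2 peaks, at 8745 and 22711 bp upstream with scores of 196 and 26. ULK2, its paralogue, had none.

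The ATG13 promoter, the strongest of the autophagy group, is shown as the 250 bases before its RefSeq start (GRCh38, all under the peak), with an inverted CCAAT box in capitals.
ATG13, chr11:46617303-46617552, plus strand: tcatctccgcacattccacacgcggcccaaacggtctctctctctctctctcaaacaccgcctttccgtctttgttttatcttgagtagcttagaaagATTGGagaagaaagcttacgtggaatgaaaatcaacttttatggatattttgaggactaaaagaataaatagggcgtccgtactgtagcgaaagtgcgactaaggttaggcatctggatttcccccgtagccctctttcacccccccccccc

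The lipid kinase complex, which makes phosphatidylinositol 3-phosphate on the growing membrane, had a promoter peak at 2 of 4 genes. The interval, 6.76 to 93.2%, held the 15.5% of all protein-coding genes. ATG14, the subunit that directs the complex to autophagy, had a score of 133 (chromosome 14, 55411471 to 55411999), in its first exon 123 bp after the start, where the span of FBXO34 also reaches. PIK3C3, the catalytic subunit also called VPS34, had 80, centred 279 bp upstream (chromosome 18, 41954710 to 41955200). BECN1, the regulatory subunit beclin 1, had no peak. UVRAG, its alternative partner, had a single assigned peak of score 21 over an Alu element, 8401 bp after the start. Of the 10 autophagy genes with a promoter peak and a RefSeq promoter sequence, ATG14 alone held an E-box before the start, in capitals here, 21 bases before the start and inside the peak (GRCh38).
ATG14, chr14:55411831-55411950, minus strand: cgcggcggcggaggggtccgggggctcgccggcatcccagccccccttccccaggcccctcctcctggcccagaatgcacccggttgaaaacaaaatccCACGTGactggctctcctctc

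Conjugation enzymes had promoter peaks at 3 of 11 genes, all of moderate or low score. The interval, 6.02 to 61%, held the 15.5% of all protein-coding genes. ATG4D, a protease that trims ATG8-type proteins, had 106 with its centre 814 bp after the start. ATG16L1, which anchors the conjugation complex to the membrane, had 57 at 554 bp upstream (chromosome 2, 233250572 to 233251462). ATG12, the ubiquitin-like protein joined to ATG5, had 53 at 77 bp upstream, where an end of AP3S1 also lay within 1 kb. ATG4B, another ATG8 protease, lay just outside the window, with a peak of score 45 inside the gene over an LTR28C element, 1881 bp from the start. ATG10, ATG4C, ATG7 and ATG16L2 had distant peaks, of scores 34 to 83. ATG3, ATG4A and ATG5 had none assigned.

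ATG3, the enzyme that transfers ATG8-type proteins to lipid, shows how assignment to a single gene sets these counts. A peak of score 53 lay just inside the gene (chromosome 3, 112561550 to 112561947), with its centre 214 bp from the RefSeq start at 112561962. It was assigned to SLC35A5, whose start is nearer. When every peak within 1 kb of a RefSeq start was counted, whichever gene it was assigned to, ATG3 was the gene gained, and 0 of 15 pump genes with a listed start had a peak.

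The ATG8 family, the proteins attached to the autophagic membrane, had promoter peaks at 3 of 7 genes. The interval, 9.9 to 81.6%, held the 15.5% of all protein-coding genes. GABARAP had a score of 125 and a broad peak of 1062 bp centred 400 bp upstream (chromosome 17, 7242319 to 7243380). An end of CTDNEP1 lay within 1 kb. MAP1LC3B, which encodes the commonly used autophagy marker LC3B, had 90 at 74 bp upstream (chromosome 16, 87392077 to 87392447). FBXO31 also had an end within 1 kb of this peak. A further peak of score 33, within 1 kb of the RefSeq start of MAP1LC3B, was assigned to FBXO31. GABARAPL1 had 45 at 800 bp upstream, with its nearer edge 672 bp from the start. MAP1LC3A and MAP1LC3B2 had peaks only over repeats, of scores 39 to 176, and GABARAPL2 and MAP1LC3C had none. SQSTM1, the cargo receptor p62, had 2 promoter peaks at different starts. The stronger, of score 191 and 1503 bp wide, lay 624 bp after an upstream start (chromosome 5, 179806882 to 179808384), and an end of MGAT4B lay within 1 kb. Its deposited promoter label named NM_014275, whereas the assigned start was that of NM_001142299, so the labelled promoter need not be that of SQSTM1. Labels of the TFEB, ATG16L1, ATG12 and GABARAPL1 promoter peaks also named a transcript other than that of the assigned start. The other, of score 87, was centred 1383 bp before the start of the transcript NM_003900 and reached the window with its edge at 834 bp. It was the peak of the set closest to the limit on the inside. A further peak of SQSTM1, of score 17, lay over an L1PA5 element.

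The SQSTM1 promoter, the second strongest of the autophagy group, is shown as the 120 bases before the upstream start (GRCh38, all under the stronger peak). It holds no searched motif other than the GC box, which is not marked.
SQSTM1, chr5:179806889-179807008, plus strand: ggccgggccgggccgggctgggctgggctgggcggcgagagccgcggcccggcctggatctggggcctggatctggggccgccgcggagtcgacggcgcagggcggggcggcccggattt

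No peak was assigned to any of the 6 genes of membrane expansion, ATG2A, ATG2B, ATG9A, ATG9B, WIPI1 and WIPI2, which move lipids to the membrane or read its phosphoinositide mark. The exact interval for 0 of 6 reaches 45.9%. It holds both the 41.7% of all protein-coding genes named as nearest gene and the 15.5% with a promoter peak. A peak of score 37 within 1 kb of an end of ATG9A (chromosome 2, 219218895 to 219219208) was assigned to ABCB6. That end, at 219219380, is the one opposite the RefSeq start, which lies at 219229636 on the minus strand.

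TFEB and MCOLN1 followed ATG13 in promoter score. TFEB had 259 (chromosome 6, 41735221 to 41735899), centred 33 bp upstream of the assigned start, and 6.39% of genes with a promoter peak scored above it. An end of PGC lay within 1 kb of the TFEB peak. MCOLN1, the lysosomal calcium channel that activates calcineurin and through it TFEB, had 196 (chromosome 19, 7522253 to 7522766), centred 115 bp upstream. The TFEB relatives differed: MITF had 1 peak of score 37 over an L1MA6 element, 30433 bp upstream of the nearest start, and TFE3 had none. TFE3, LAMP2 and ATG4A are the 3 genes of the set on the X chromosome. None had an assigned peak at any distance. On that chromosome 88 of 848 protein-coding genes (10.4%) were the nearest gene of a peak, and 19 (2.24%) had a promoter peak. LAMP1 and LAMP2, the main lysosomal membrane glycoproteins, had no assigned peak. LAMP3 had 1 assigned peak, of score 66 at 41056 bp upstream and inside MCF2L2. A peak of score 82 centred inside LAMP3, over a HAL1b element, was assigned to MCCC1.

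Both promoters are shown because each holds a sequence of interest under its peak (GRCh38). In TFEB, the capitals mark a match to the RONIN/ZNF143 motif, searched as ACTACANNNCCC on both strands, 124 bases before the start. In MCOLN1, they mark 2 cores of the CLEAR element, TCACGTGA, at 42 and 15 bases before the start, and a core of the NRF1 motif, GCATGCGC, at 99 bases before it.
TFEB, chr6:41735609-41735858, minus strand: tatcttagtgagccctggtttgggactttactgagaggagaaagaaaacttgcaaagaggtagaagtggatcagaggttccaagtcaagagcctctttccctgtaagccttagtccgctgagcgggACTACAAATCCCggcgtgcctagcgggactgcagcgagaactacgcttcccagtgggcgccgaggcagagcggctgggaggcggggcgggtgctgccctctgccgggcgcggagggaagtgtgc
MCOLN1, chr19:7522504-7522623, plus strand: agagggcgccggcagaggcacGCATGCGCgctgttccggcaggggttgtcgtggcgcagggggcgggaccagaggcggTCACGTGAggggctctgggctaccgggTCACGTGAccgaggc

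The promoter peaks of these genes ranked towards the upper part of all promoter peaks. Best scores of the 14 genes ran from 37 at CTSO to 314 at ATG13 with a median of 106, against a median of 58 over the 3097 protein-coding genes with a promoter peak. In the higher-scoring 10720 peaks 10 of the 14 genes kept a promoter peak, against 1489 of the 3097. Median width of the 15 promoter peaks was 529 bp, against 446 bp over all 3335 promoter peaks of protein-coding genes. Centres lay upstream of the start in 10 of 15 peaks (66.7%, against 57.2% of all promoter peaks). None of the 15 had a repeat label at its centre, and 3.51% of all promoter peaks had one.

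**Figure D2:**
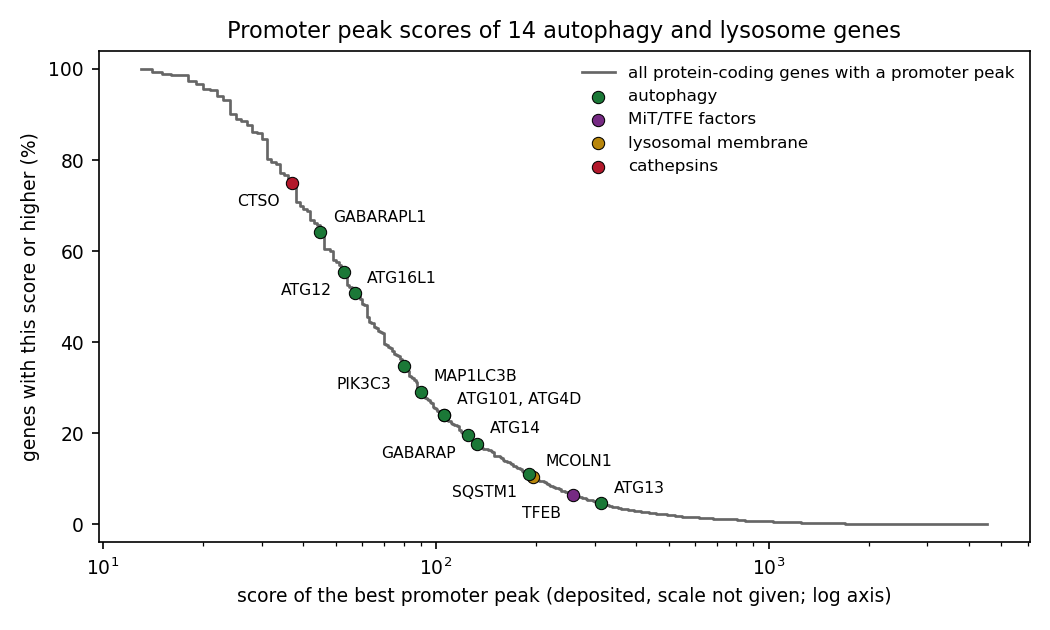
Score of the best promoter peak (deposited scale, log axis) of the 14 genes, as points on the curve of all 3097 protein-coding genes with a promoter peak, whose height is the share of genes (%) with that score or higher. ATG13, TFEB, MCOLN1 and SQSTM1 lie at the upper end with 314, 259, 196 and 191, and CTSO lies lowest with 37.

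The proton pump, or V-ATPase, acidifies the lysosome and is also part of the amino acid signal to mTORC1. It is built of a membrane sector, V0, and a catalytic sector, V1. None of the 9 V0 genes and none of the 13 V1 genes had a promoter peak. The count was 0 in each of the 9 alternative settings. The 100 bp window, score subsets, deposited promoter class, peaks mostly inside the window and repeats left out could not raise a count of 0. Only the 5 kb window, RefSeq starts and gene span ends could have added a gene, and the 5 kb window counted assigned peaks only. A peak of score 95 inside ATP6V1E2 (chromosome 2, 46540530 to 46541026, in a gene span that runs to 46542577) was assigned to RHOQ and so did not count. Peaks were assigned to 4 subunit genes, 6 in all, each centred in a repeat and 9957 to 106236 bp from the start. ATP6V1H, a regulatory V1 subunit, had the highest score, 427, inside the gene over an LTR2 element. ATP6V0A1, a proton-channel subunit, had 263 over an MLT1B element at 11470 bp upstream and 21 at 9957 bp. ATP6V0D2 and ATP6V1G3 had scores of 13 to 81. The other 18 pump genes, among them ATP6V1A, ATP6V1B1, ATP6V1B2, ATP6V1D, ATP6V1E1, ATP6V0A4, ATP6V0B, ATP6V0C and ATP6V0D1, had no assigned peak.

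The TFEB-type sequence also stood in pump, protease and LAMP1 promoters without a peak. The CLEAR core was present in ATP6V0D1, ATP6V1G1, CTSA and LAMP1 before the start, in capitals below with any further E-box (CACGTG) or ETS core (CCGGAAG), 120 bases before each start (GRCh38). No base shown lay under a peak.
ATP6V0D1, chr16:67481158-67481277, minus strand: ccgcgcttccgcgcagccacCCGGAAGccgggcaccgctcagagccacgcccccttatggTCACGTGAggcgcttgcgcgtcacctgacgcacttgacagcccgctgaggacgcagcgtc
ATP6V1G1, chr9:114587649-114587768, plus strand: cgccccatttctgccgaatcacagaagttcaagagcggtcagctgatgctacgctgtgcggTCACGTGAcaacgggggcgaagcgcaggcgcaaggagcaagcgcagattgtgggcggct
CTSA, chr20:45891215-45891334, plus strand: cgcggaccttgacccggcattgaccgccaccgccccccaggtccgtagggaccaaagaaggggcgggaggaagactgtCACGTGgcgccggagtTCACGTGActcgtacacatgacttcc
LAMP1, chr13:113297119-113297238, plus strand: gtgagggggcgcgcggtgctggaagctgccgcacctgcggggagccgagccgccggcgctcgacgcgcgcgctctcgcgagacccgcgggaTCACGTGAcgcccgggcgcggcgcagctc

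Cathepsins are the lysosomal proteases, and the only one with a promoter peak was CTSO, a cysteine cathepsin, with a score of 37 at 89 bp after its start (chromosome 4, 155953599 to 155953956). Of genes with a promoter peak, 70.7% scored above it. CTSD, the main aspartic protease of the lysosome, had 3 intergenic peaks 9078 to 18838 bp upstream, with scores of 149, 16 and 31 in order of distance. CTSL, a cysteine protease, had 2 peaks over repeats at 12340 and 17092 bp, with scores of 45 and 56. The other 12 cathepsin genes, among them CTSA, CTSB, CTSC, CTSH and CTSZ, had none.

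Away from promoters the highest-scoring peak of the set, of score 867, belonged to RB1CC1, the scaffold of the ULK1 complex also called FIP200. Its 3 intergenic peaks lay 76224, 86616 and 91660 bp upstream of its start, with scores of 118, 367 and 867 (chromosome 8, 52790195 to 52806596 from first to last). The last covered an LTR61 element and ranked 110 of 21440 peaks. Another, of score 126, lay inside the gene over a MER77 element. Next came the peaks of ATP6V1H with 427, ATP6V0A1 with 263 and ULK1 with 196, apart from those of RB1CC1. CTSD had 149, as given above, and other high scores away from a start belonged to MAP1LC3B2 with 176 at 4148 bp, MAP1LC3A with 109 at 53470 bp and ATG16L2 with 83 at 97020 bp. The MAP1LC3A peak lay inside PIGU and both ATG16L2 peaks inside FCHSD2, so distance alone joined them to the set. Of the 32 peaks outside the promoter window, 26 (81.2%) had a repeat label, 12 of them L1 and 11 LTR elements, against 76.6% of such peaks over all protein-coding genes.

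**Figure D3:**
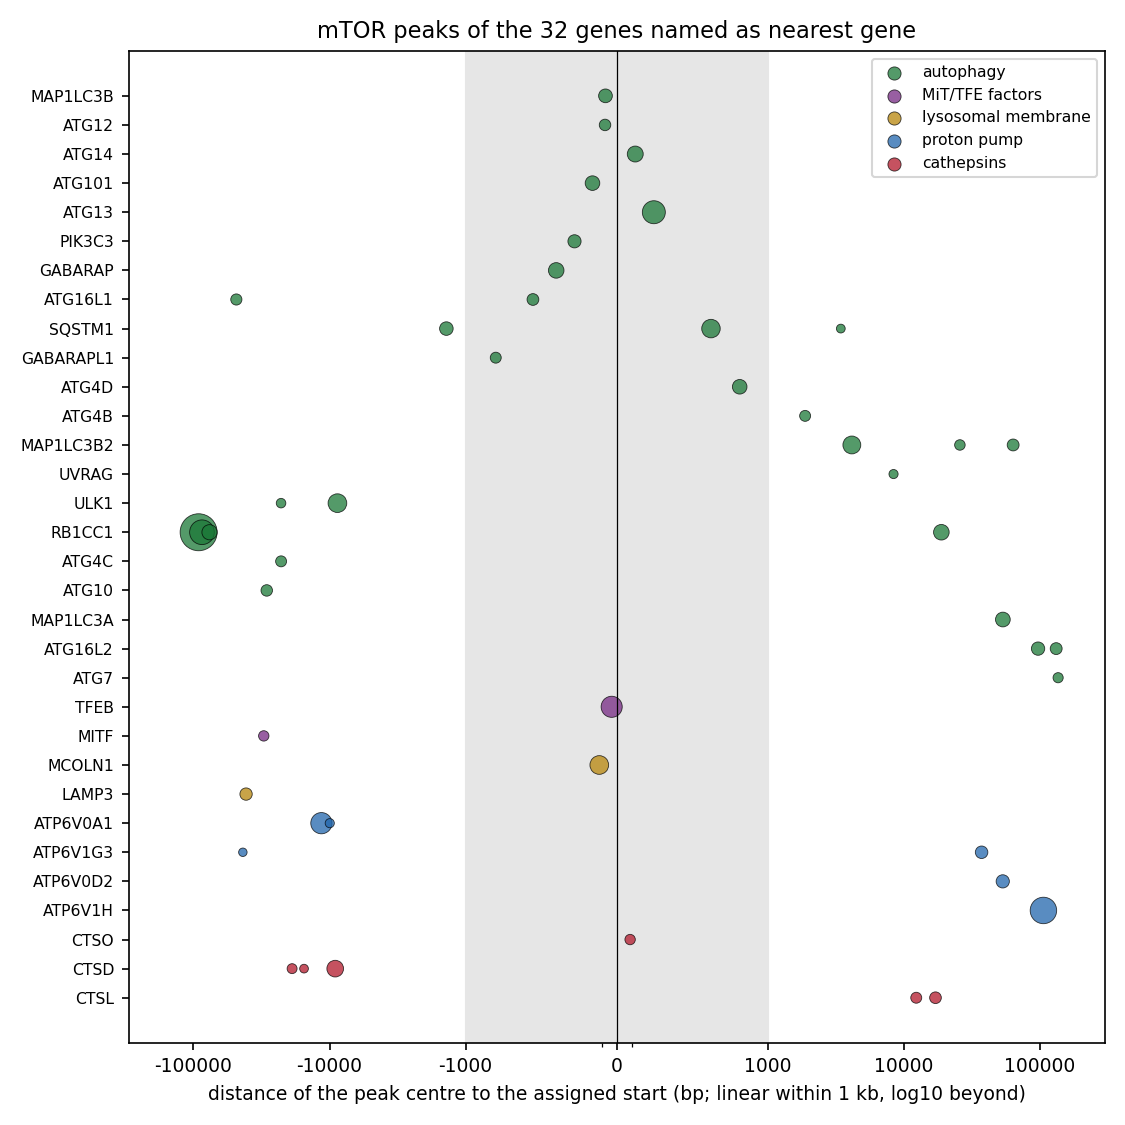
Distance (bp) of each assigned peak's centre from the start of its gene, for the 32 genes named as nearest gene; negative values are upstream, the axis is linear within 1 kb and logarithmic beyond, and point area grows with the score. Autophagy genes fill the grey 1 kb zone together with TFEB, MCOLN1 and CTSO, while every proton pump peak lies at least 9957 bp away.

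Promoter G+C overlapped widely between the groups. RefSeq sequences of 250 bases before to 50 after the start were at hand for 61 of the 79 genes. Median G+C was 64.8% for 30 autophagy, 62.3% for 15 pump and 67.8% for 10 cathepsin promoters, against 62.7% over 15812 protein-coding promoters. Among promoters with at least 60% G+C, 5 of 19 autophagy, 0 of 10 pump and 0 of 6 cathepsin promoters had a peak, against 20.4% of all such protein-coding promoters. Below that level, 5 of 11 autophagy, 0 of 5 pump and 0 of 4 cathepsin promoters had a peak, against 10.0% of all. CpG observed over expected had medians of 0.905, 0.770 and 0.817 in the 3 groups and 0.765 over all. The ATG13 promoter was the poorest in G+C of those with a peak, at 49.0%, and MAP1LC3B the richest, at 75.7%.

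**Figure D4:**
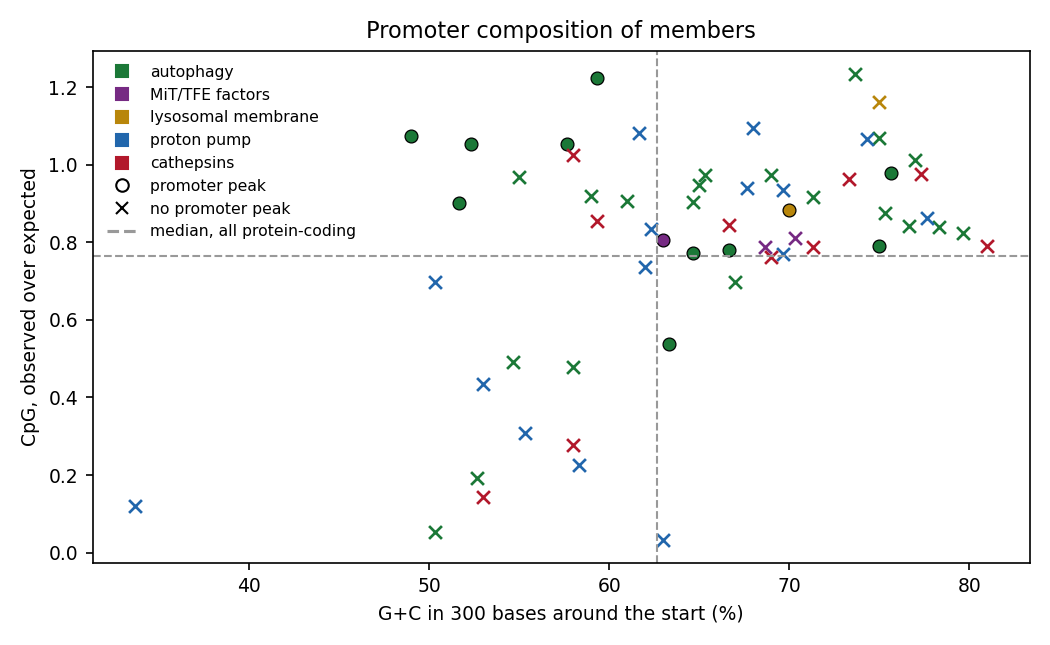
G+C (%) and CpG observed over expected in 300 bases around the start of member genes, coloured by group, with circles for genes with a promoter peak and crosses for genes without; dashed lines are medians over 15812 protein-coding promoters. Circles spread from 49.0 to 75.7% G+C, and crosses of the proton pump group from 33.7 to 77.7%.

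In these 300 bases, searched on both strands, the CLEAR core occurred in 6 of 61 promoters of the set (9.84%), against 1.41% of all protein-coding promoters, and the E-box CACGTG, which every CLEAR core contains, in 11 of 61 (18.0%, against 8.90%). Of the 6 genes with a CLEAR core MCOLN1 alone had a promoter peak assigned, and ATG3 had the peak just inside the gene that was assigned to SLC35A5, with no base upstream of its start under it. Over all protein-coding genes 50 of 223 promoters with a CLEAR core had a promoter peak (22.4%), against 16.2% of those without it. The RONIN/ZNF143 motif occurred in 3 of 61, TFEB, MITF and ATG4A (4.92%, against 3.46%). Of all protein-coding promoters with this motif, 38.6% had a promoter peak, against 15.5% of those without it, and of these 3 genes TFEB had one. The ETS core, CCGGAAG, was in 9 of 30 autophagy promoters (30.0%), in 2 of 15 pump and in 0 of 10 cathepsin promoters, against 14.3% of all. Of the 9, ATG101, ATG16L1 and PIK3C3 had a promoter peak. ATG3, ATG4C, ATG5, ATG7, BECN1 and GABARAPL2 had none assigned, and of all 30 autophagy promoters 10 had one (33.3%). The GC box, GGGCGG, was in 9 of the 12 promoters with a peak and in 31 of 49 without (63.3%), and over all protein-coding promoters in 72.4% of those with a peak and 56.0% of those without. A match is a description of letters and not a bound site.

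Other genes of the pathway, from a list of 91 that the names above leave out, had promoter peaks at 19 (20.9%, 13.1 to 30.7%), an interval that holds the 15.5% of all protein-coding genes. Lysosomal hydrolases outside the cathepsins had 7 of 29 (24.1%), among them PLA2G15, a lysosomal phospholipase, at 160, and GUSB, the beta-glucuronidase, at 116. Autophagy regulators had 4 of 19, with ZFYVE1, a phosphoinositide-binding protein used to mark early autophagic membranes, at 159 and WDR45B, a WIPI relative, at 97. Fusion machinery had 3 of 13, with the SNARE gene SNAP29 at 87, and autophagy receptors had 2 of 7. Lysosomal membrane and transport genes had 3 of 23, of scores 26 to 48.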

How the data were processed

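The sample is mTOR-enriched chromatin of MDA-MB-231 cells, with an input library beside it, per the labels. Trimmomatic 0.36, BWA 0.7.12, Picard 2.0.1, MACS2 2.1.1.20160309, HOMER 4.11.1 and hg38 are named, with no settings, per the submitters' processing notes. The deposited peak score is a whole number on an unstated scale and was used only to rank and describe peaks. The assigned gene and its distance, also deposited, were used as they stand, and the input library itself was not analysed here.

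Each peak counted for its assigned gene. Genes were matched by gene identifier to a RefSeq table (GRCh38.p14), and promoter sequences came from RefSeq on the same build. For a gene with several starts, the start nearest to its best promoter peak was used, otherwise the most upstream. Distances computed from these starts were within 200 bp of the deposited ones for 90.0% of peaks. MAP1LC3BP1 matched by name, had no peak and was put in no group.

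No test was run: there was 1 ChIP library, and shares carry exact Clopper-Pearson 95% intervals. The window call was run on simulated peaks, which checked its arithmetic only and not the deposited distances or the gene assignment. Members, groups and lists were chosen with earlier results of these data known. Genes named are all members with a promoter peak, 8 others with the highest-scoring peaks, those next to the window limit and the 5 top genes of the other list. Some further members are named after their values were seen, as are the ATP6V0D1, ATP6V1G1, CTSA and LAMP1 sequences; no sequence is printed for genes not in the table or on chromosome 8. Alternatives were windows of 100 bp and 5 kb, score subsets, the deposited promoter class, a peak mostly inside the window, repeats left out, RefSeq starts and gene span ends. The promoter class was counted for the assigned gene, whichever transcript its label named. Intervals came from scipy 1.17.1, tables from pandas 2.3.3 and numpy 2.4.6 under Python 3.11.15, and figures from matplotlib 3.10.9.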

Additional observations from a re-analysis of the deposited data

How the results depend on the processing

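Counts of genes with a promoter peak moved little in most settings. For the whole set they ran from 10 to 16 of 79 in 7 settings, with 13 of the 61 genes that have a RefSeq start, but were 2 with the 2144 highest-scoring peaks. Autophagy genes gave 8 to 13, and 1 with these peaks, beside background shares of 7.45 to 20.3% and 1.57%. Proton pump genes gave 0 in all 9 settings, of which only the 5 kb window, RefSeq starts and gene span ends could have raised the count. The cathepsin count of 1 became 0 with the higher-scoring 10720 peaks, with the 2144 highest and with RefSeq starts, where CTSO was not among the 10 genes listed. Genes named as nearest gene, 32, became 21 with the higher-scoring 10720 peaks, 5 with the 2144 highest, 20 with centres within 10 kb and 17 with repeat-labelled peaks left out, against 26.7, 7.01, 24.2 and 23.1% of all protein-coding genes. The setting of either end of the gene span was chosen after the data were seen. No paired analysis was possible because each group has 1 library and no test was run. Depth is unknown, so a missing peak was not detectable at this depth and not shown to be absent.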

Other observations

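Assignment to the nearest start placed 11 of the 27 peaks centred inside genes of the set with another gene. A repeat label was present on 6 of the 11. In UVRAG 2 peaks of scores 126 and 33 were assigned to WNT11, whose start lies 157506 and 114302 bp away. In ATP6V1E2, the V1 subunit isoform best known from testis, a peak of score 95 in an intron was assigned to RHOQ at a distance of -1712 bp. ATP6V0A1 had a peak of score 27 in intron 20 of 20, assigned to MIR5010. CTSD had one of score 32 in intron 5 of 8, assigned to IFITM10. At the other end of MCOLN1, a peak of score 122 (chromosome 19, 7533837 to 7534484) was assigned to PNPLA6.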
